A study of Neurospora crassa with 112 samples.

Results

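The mycelial libraries of the 3 *Neurospora crassa* strains 2489, 847 and D143 were set beside those of 24 strains from Franklin, Louisiana. The Franklin strains are from the Fungal Genetics Stock Center (FGSC) and are numbered from 4450 to 4498. The first 3 strains are of about 1 genotype in the markers read. These 27 libraries are part of a series of 112. The first group was chosen because its 3 strains share nearly all of the genotypes in the rows read of the study's marker set, which lie on 1 chromosome, and no expression value was used to choose either group. The labels call all 3 strains wild Louisiana isolates, whereas 2489 is the laboratory strain whose genome is the reference of the species. They are called laboratory-like here. Mycelia were grown on Bird medium covered with cellophane for 16 h, and each strain gave 1 library of polyadenylated RNA from mycelia, with no gene deleted and no treatment in either group. The 3 laboratory-like libraries are therefore taken as 3 cultures of nearly 1 genotype, and the Franklin libraries as 24 strains with 1 culture each. Whether the 3 strains match on the other chromosomes was not examined here.

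*N. crassa* is a haploid filamentous fungus that grows as a network of fused hyphae. A culture forms aerial hyphae and conidia, the asexual spores, as it ages, dries or meets light, and it responds quickly to the nutrients at hand. Expression in mycelia therefore varies with genotype and also with the state of the culture. A set of cultures with nearly the same genotype shows how far expression moves without much genetic difference, and the Franklin strains show how far it moves with both. Genes that are read in one strain and absent in another are common in wild fungi, among them genes of vegetative incompatibility, the system that limits fusion to like strains.

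The values were RPKM, in which the reads of a gene are divided by its length and by the library total. The laboratory-like libraries held 5132423 (2489), 9843812 (847) and 8653758 (D143) reads, and the Franklin libraries 7587021 to 30748165. Between 961 and 1097 genes were at 0 in a laboratory-like library and between 658 and 1116 in a Franklin library. Between the Franklin libraries 4450 and 4451 the median squared difference was 1.90 times that of sampling noise, against 8.80 for the next closest Franklin pair. Both libraries were kept. The library of 4453 was near-identical to a library outside both groups. Neither the labels nor the file give a batch for any library.

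The library of 2489 stood apart from the other 2 laboratory-like libraries. Of 5905 genes whose mean over the 27 libraries reached 10 RPKM, 2489 lay outside the whole range of the 24 Franklin strains in 1770, or 29.97%, with 1216 genes above and 554 below. The same count was 127 (2.15%) for 847 and 196 (3.32%) for D143. Each Franklin strain, set against the other 23, lay outside in 164 to 1495 genes (median 434), and the highest of these was 4483. Hence 847 and D143 were near or below the lowest Franklin strain, while 2489 was above the highest. After median centring 2489 was outside in 1520 genes, against 127 for 847 and 247 for D143. After quantile normalization it was still outside in 1672 genes, against 168 for 847 and 253 for D143. After reads were thinned to the smallest library total it was outside in 1713. The highest RPKM of any gene was 19484 in 2489, 65777 in 847 and 87702 in D143, and 49833 to 118915 in Franklin libraries. The part of this in the counts was not tested.

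**Figure D1:**
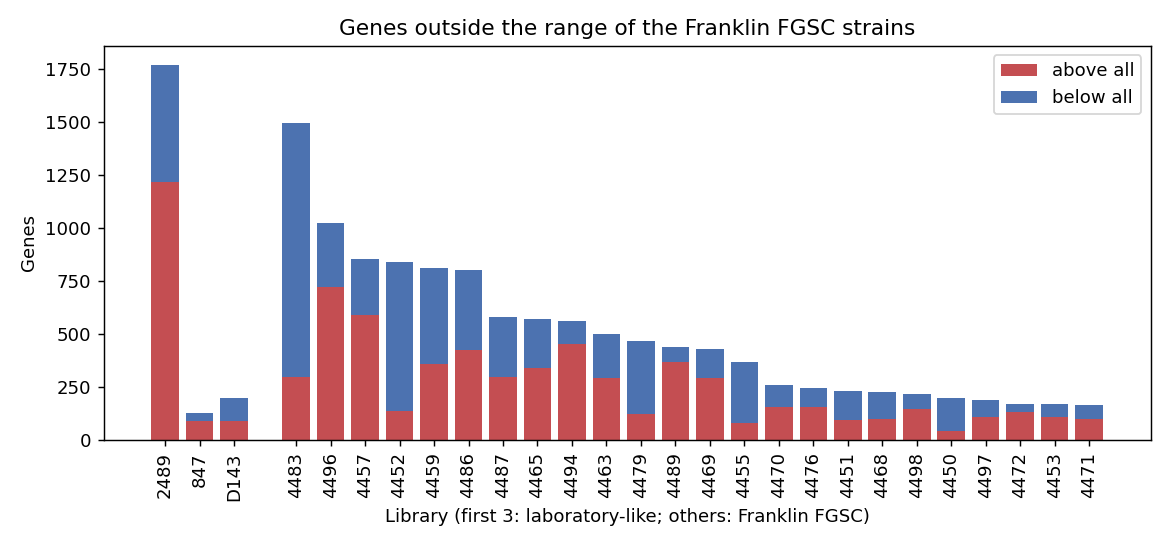
Number of genes (y axis, of 5905 genes whose mean reached 10 RPKM) in which each library (x axis) lay above or below every Franklin FGSC strain, itself left out. The library of 2489 was outside in 1770 genes, that of 847 in 127 and that of D143 in 196.

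The deviation of 2489 went with gene length, here the coding length. The 5905 genes were divided by length into 5 equal bins. In the shortest bin, of 75 to 738 bases, the median difference between 2489 and the Franklin median was -0.27 on the log2(RPKM + 1) scale. In the other 4 bins it was 0.22, 0.29, 0.27 and 0.22. The corresponding values lay between 0.05 and 0.09 for 847 and between -0.11 and 0.01 for D143. The Franklin strains, each against the others, spanned -0.23 to 0.20 in the shortest bin and -0.53 to 0.26 in the longest, and 2489 lay outside their range in the first 4 bins and inside it in the longest. The part of gene length in the results below was not tested.

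Spread among the 3 cultures was within the range of Franklin strains, and it was lower without 2489. The median over genes of the standard deviation (SD) of log2(RPKM + 1) was 0.296 among the 3 cultures. All 2024 sets of 3 Franklin strains were enumerated, and their medians ran from 0.142 to 0.435 with a median of 0.282. Of these triples, 1260 (62.3%) had a lower spread than the laboratory-like cultures. The lowest was 4450, 4451 and 4453, and the highest 4483, 4486 and 4496. Triples share strains, so these counts are a description. Without 2489 the median SD was 0.165, over 2 values, and 5.43% of the 276 Franklin pairs, with a median of 0.229, were lower. Scaling moved the order: 37.2% of triples were lower after median centring and 44.9% after quantile normalization. Differences within the laboratory-like group can come from the culture, the library or the genetic differences that remain, which cannot be told apart here.

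The spread was unequal among the pairs. The median absolute difference between 2 libraries was 0.405 for 2489 and 847, 0.415 for 2489 and D143, and 0.233 for 847 and D143, against 0.075 to 0.624 (median 0.324) over 276 Franklin pairs. Thus 231 and 237 Franklin pairs were closer than the pairs with 2489, and only 15 were closer than 847 and D143. More than 2-fold differences on the log2(RPKM + 1) scale were found in 870 genes (14.7%) between 2489 and 847, in 694 (11.8%) between 2489 and D143 and in 280 (4.74%) between 847 and D143. The closest of the other 107 libraries was not a laboratory-like one for any of the 3 cultures. For 847 it was the Franklin strain 4472 (0.140). For D143 it was JW16 (0.162) and for 2489 it was 1693 (0.376), both from outside the 2 groups.

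**Figure D2:**
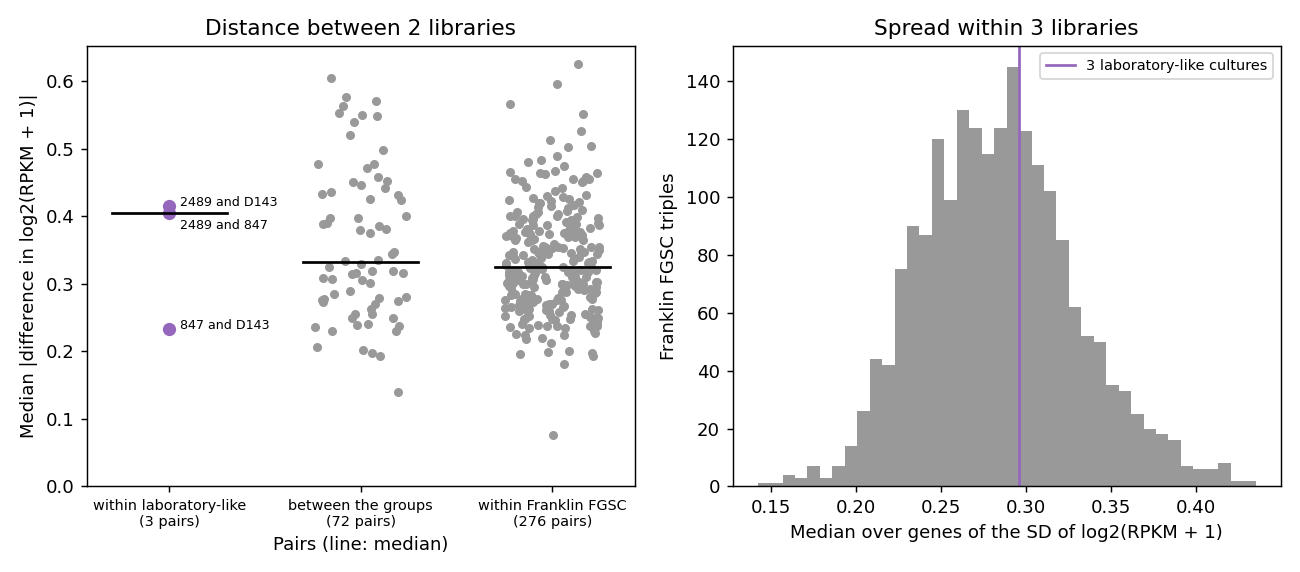
Left, the median absolute difference in log2(RPKM + 1) between 2 libraries (y axis) for pairs within and between the groups, each point 1 pair and each line a median. Right, the number of Franklin FGSC triples (y axis) by the median SD within a triple (x axis), with the 3 laboratory-like cultures at 0.296. The pair 847 and D143 sits at 0.233, below most Franklin pairs, and both pairs with 2489 lie above 0.4.

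The genes with the largest spread among the 3 cultures fell into 2 kinds. In the first, 2489 was lowest, D143 intermediate and 847 highest. NCU02880 had the largest SD of all (4.37), at 6.61 RPKM in 2489, 3229 in 847 and 219 in D143. The Franklin strains covered nearly the same range, from 3.91 to 5583 RPKM with a median of 282. NCU03788 was at 0.370, 462 and 34.6 RPKM, NCU01212 at 2.76, 1197 and 113.2, and NCU09855 at 0.382, 315 and 41.8, in the same order of cultures. Its neighbour NCU09854 followed with 0.177, 195 and 13.9 RPKM. *poi-2*, a gene known from sexual development, was at 1.09, 411 and 71.1 RPKM, and NCU08013 at 1.58, 225 and 56.4 RPKM. D143 lay within the Franklin range in all 7 genes. In NCU01212, NCU09855 and NCU08013 the level in 2489 was below the lowest Franklin strain, at 3.80, 0.543 and 12.2 RPKM, and in *poi-2* that of 847 was above the highest (351 RPKM).

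**Figure D3:**
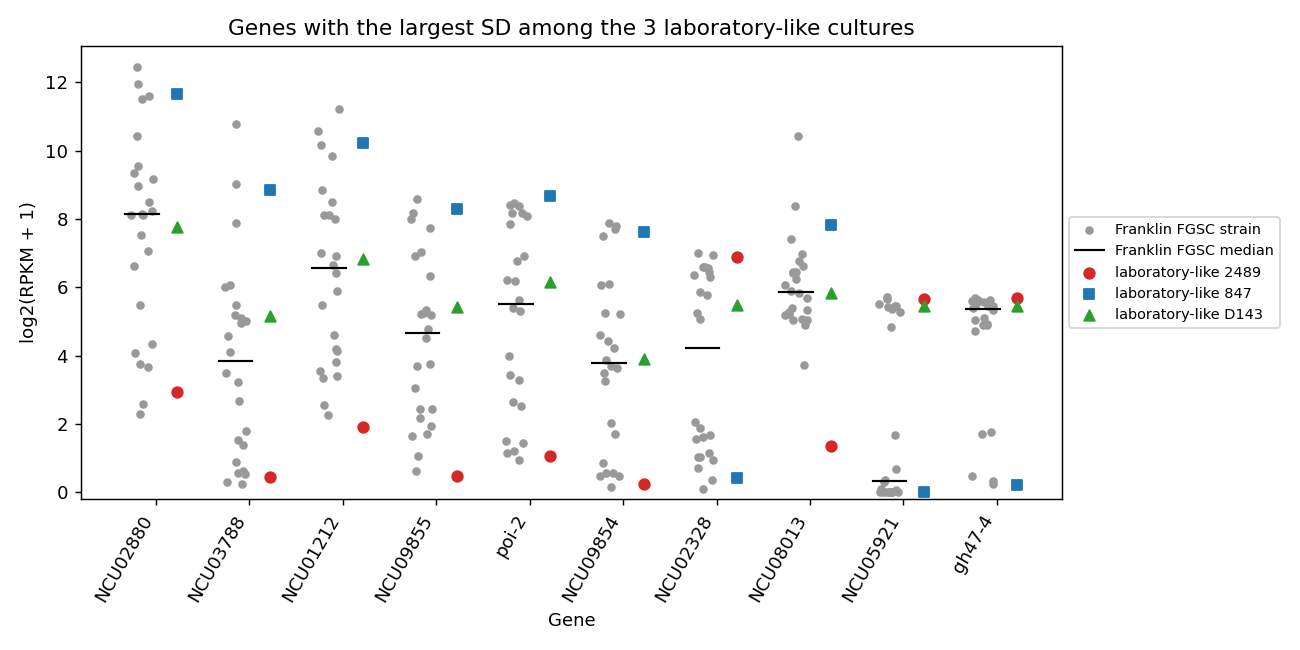
Level in log2(RPKM + 1) (y axis) of the 10 genes with the largest SD among the 3 laboratory-like cultures (x axis), by library, with the Franklin FGSC median as a line. In 7 genes 847 was highest and 2489 lowest, and in NCU02328, NCU05921 and *gh47-4* 847 was near 0 while 2489 and D143 were high.

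In the second kind 847 alone was near 0. NCU05921 was at 49.9 RPKM in 2489 and 43.2 in D143, and at 0 in 847, where no read was found. NCU02328 was at 117.4, 0.326 and 43.8 RPKM in 2489, 847 and D143. *gh47-4*, named as a member of glycoside hydrolase family 47, was at 50.6, 0.172 and 42.9 RPKM, and its neighbour NCU05835 at 50.6, 0 and 22.5. NCU05130 and NCU05083 completed the set of 6 genes that were below 0.5 RPKM in 847 and at 10 RPKM or more in both other cultures. They were chosen after their values were seen. Some Franklin strains had the low level and others the high one. NCU05921 was below 0.5 RPKM in 13 strains and at 10 RPKM or more in 9, with 2 strains between, and *gh47-4* was below 0.5 RPKM in 3 and at 10 or more in 19. The strains 4470 and 4472 had the high level in both genes, at 39.9 and 42.99 RPKM for NCU05921. Another 6 genes were below 0.5 RPKM in 2489 alone, among them NCU03788, NCU09854 and NCU09855, and none was so in D143 alone. Over all pairs of cultures, 27 genes were at 10 RPKM or more in 1 culture and below 0.5 in another. The pair 2489 and 847 had 24 of these switches, against a median of 20 and a highest count of 73 over Franklin pairs.

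Conidial markers differed widely between the cultures, while the longer conidiation list varied less than in most Franklin triples. *eas*, which encodes the hydrophobin of the conidial surface, was at 1216 RPKM in 2489, 16425 in 847 and 4332 in D143, and the Franklin strains ran from 42.97 to 95463 with a median of 5596. *con-6*, a conidiation gene, was at 52.5, 1106 and 81.1 RPKM, and *con-10* at 1.49, 41.6 and 6.20. The sum of the 4 conidial markers with a row (of 5 listed) was 1270 RPKM in 2489, 17575 in 847 and 4420 in D143, and between 179 and 122124 in Franklin strains. Their median SD was 1.97 among the cultures and 2.04 in the median Franklin triple, and without 2489 it was 1.59 against 1.44 in the median Franklin pair. *con-13* was the only marker at 0 in any of the 27 libraries, and 2489 was such a library. The order 2489, D143, 847 is that of the first kind of variable genes, and the part of conidia in those was not tested. In RNA from a whole culture, fewer cells of a type and less RNA per cell cannot be told apart. No conidiation gene passed the threshold between the groups, all 9 tested members being below 0 and a median difference of -0.91, against 0.05 over all genes tested. The smallest p in that list, adjusted over all genes by limma, was 0.56 for *csp-1*, which acts in conidial separation, at 27.1, 26.6 and 22.5 RPKM against a Franklin median of 41.5.

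The list of copper and zinc genes was wide as well. *tcu-1*, a copper transporter gene, was at 7.90 RPKM in 2489, 185 in 847 and 87.3 in D143, and 2489 was below the lowest Franklin strain (12.96 RPKM). *tcu-3*, a second one, was at 34.6, 274 and 151 RPKM, again with 2489 below the Franklin range of 45.4 to 348. *sod-2*, the gene of manganese superoxide dismutase, was at 55.7, 1654 and 500 RPKM, while *sod-1*, that of the copper and zinc enzyme, went the other way with 2119, 620 and 1408. The median SD over the 5 genes of the list was 1.52 among the cultures, and 77.6% of Franklin triples were lower. Without 2489 this median was 0.76, and 47.1% of Franklin pairs were lower. Neither *sod-1* (difference 0.19) nor *tcu-3* (-0.33) passed the threshold between the groups (limma, adjusted p = 0.89 and 0.82), and both differences changed sign without 2489.

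Of 13 genes of hyphal fusion at a mean of 10 RPKM or more, 3 were below and 1 above the Franklin range in 2489. Together they were a share like the 29.97% of all genes. The direction was unlike that of all genes, of which 1216 were above and 554 below in 2489. None was outside in 847 or D143. *mak-2*, the MAP kinase of the fusion pathway, was at 164 RPKM in 2489, 500 in 847 and 465 in D143, and the Franklin strains were between 368 and 581. Its SD of 0.90 among the cultures was above that of every Franklin triple, and without 2489 it was 0.07, with 30.1% of Franklin pairs lower. *mek-2*, the kinase above it, was at 77.8, 147 and 146 RPKM against 102 to 174, and *ham-6*, a hyphal fusion gene, at 14.3, 68.4 and 39.1 against 33.6 to 99.1. *cse-1*, the neuronal calcium sensor homolog that the study tied to germling communication, was at 123, 332 and 270 RPKM against 192 to 407 with a median of 312. In all 4 genes 2489 was below every Franklin strain, and 847 and D143 were inside. The difference between the groups was -0.43 for *cse-1* (SE 0.21, adjusted p = 0.41 by limma), and without 2489 it was 0.000256. *mak-2* (-0.38, adjusted p = 0.42) became 0.14 without 2489, and *ham-6* (-0.91, adjusted p = 0.22) became -0.31. The fusion gene above the range in 2489 was *so*, needed for fusion, at 24.6 RPKM against a highest Franklin value of 24.03. In the pathway of *mak-2* and *mek-2*, *nrc-1* was highest in 2489, at 48.4, 40.4 and 25.1 RPKM against 17.7 to 51.2. Of the 13 differences between the groups, 6 were above 0 and 7 below. The median SD of the 13 genes was 0.25 among the cultures, with 52.6% of Franklin triples lower, and 0.13 without 2489, with 12.3% of Franklin pairs lower.

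Between the groups, 14 of 7964 genes whose mean reached 1 RPKM differed past an adjusted p of 0.05 (limma on log2(RPKM + 1), Benjamini-Hochberg, two-sided), or 0.176% of the genes tested. All 14 were higher in the laboratory-like cultures. After median centring 14 genes were higher and 3 lower, after quantile normalization 17 and 5. An unadjusted p under 0.05 was found for 958 genes. Without 2489 the count of calls was 2, without 847 it was 58 and without D143 it was 5, so the call of most of the 14 genes rested on which cultures were used. The p-values measure the spread between these cultures and strains, and the 3 cultures hold nearly 1 genotype in the markers read. The annotation used here gives no symbol for any of the 14 genes. No function is given for them, except that NCU07191 is in a list of genes tied to incompatibility and recognition.

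Of the called genes, 4 had no overlap between the groups, and in 2 of them most Franklin strains had no reads. NCU11930 was at 22.5 RPKM in 2489, 9.37 in 847 and 16.6 in D143, from 243, 194 and 302 reads. It was at 0 in 20 Franklin strains, and the highest were 4472 with 6.17 RPKM, 4469 with 3.13 and then 4483 with 0.264. The difference was 3.80 (SE 0.42, adjusted p = 7.09e-06 by limma). NCU09968 was at 44.4, 16.7 and 31.2 RPKM in the 3 cultures and at 0 in 17 Franklin strains, with the same 2 strains highest, 4472 at 11.1 RPKM and 4469 at 8.27. Its difference was 4.57 (SE 0.56, adjusted p = 2.59e-05 by limma). These were the 2 genes still called without 2489, at differences of 3.53 and 4.26. Both had a mean below 1 RPKM over the Franklin strains, so they passed the filter only through the laboratory-like cultures. A count of 3 reads in the smallest Franklin library would be 0.188 RPKM for NCU11930 and 0.103 for NCU09968, which limits what a value of 0 shows. NCU09969, next to NCU09968, was at 8.54, 3.02 and 5.58 RPKM in the cultures and at 0 in 22 Franklin strains, and its mean was too low to be tested.

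NCU06420 had the largest difference, 7.07 (SE 1.22, adjusted p = 0.00641 by limma). It was at 198, 324 and 365 RPKM in 2489, 847 and D143, and at a median of 0.320 in the Franklin strains, 8 of which were at 0. Among Franklin strains 2 reached the laboratory-like level, 4470 with 327 RPKM and 4472 with 195, and the next had 2.85. JW16 had 346 RPKM. Without 2489 the difference was 7.34 with an adjusted p of 0.10, so the size held and the call did not. NCU07191 was at 29.8, 21.9 and 18.6 RPKM and at 0 in 17 Franklin strains, whereas 4470 (22.9 RPKM), 4472 (19.7) and 4457 (18.4) were at or near the level of the cultures. Its difference was 4.01 (SE 0.83, adjusted p = 0.037 by limma), and without 2489 it was 3.83 with an adjusted p of 0.70. The next gene, NCU07192, followed the same strains, with 48.1, 29.1 and 35.5 RPKM in the cultures, 43.9 in 4457, 41.2 in 4470, 32.1 in 4472 and 0 in 15 Franklin strains. It just missed the threshold (4.54, adjusted p = 0.051 by limma).

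NCU03413 was the steadiest of the 14 genes among the cultures, at 11.7, 12.3 and 12.2 RPKM (SD 0.04 on the log2 scale). The Franklin strains had a median of 0.108 and a highest value of 8.07 in 4472, so the groups did not overlap, and 10 strains were at 0. NCU02042, the other gene without overlap, was at 14.8, 8.59 and 5.42 RPKM against 0.616 to 4.66. NCU10002 and NCU10003 are next to each other in the annotation. NCU10003 was at 23.9, 7.41 and 7.93 RPKM against a median of 0.976 and NCU10002 at 5.05, 3.69 and 3.69 against 1.08, and the highest Franklin strain was 4470 for both, at 9.48 and 3.82 RPKM. NCU08154 was at 20.1, 4.998 and 6.97 RPKM against a median of 0.272, and NCU03816 at 41.8, 17.9 and 20.5 against 3.57, with 4470 again the highest Franklin strain (13.2 and 20.4 RPKM). The remaining 4 genes, NCU07344, NCU07482, NCU00919 and NCU09510, differed by 1.01 to 1.86 on the log2 scale, and none was at 0 in any Franklin strain. NCU09510 was at 97.0, 75.9 and 66.6 RPKM against a Franklin range of 24.5 to 68.7.

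**Figure D4:**
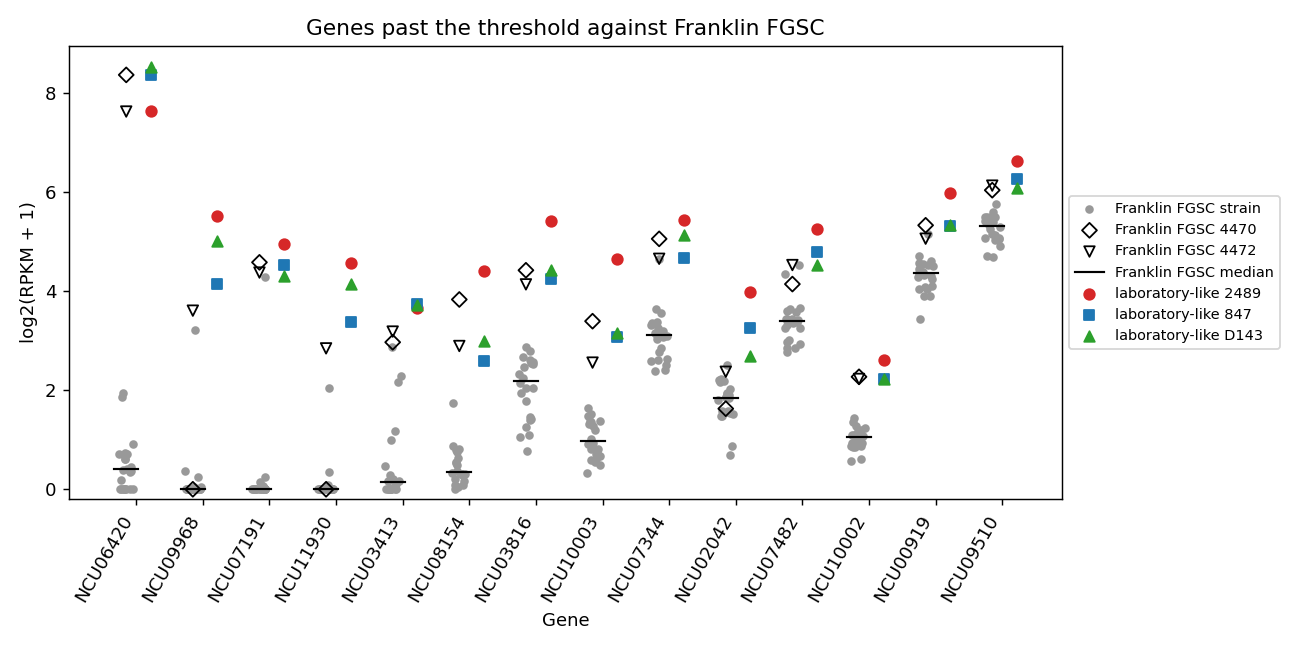
Level in log2(RPKM + 1) (y axis) of the 14 genes that differed between the groups (x axis), by library, with the Franklin FGSC median as a line and strains 4470 and 4472 as open symbols. The laboratory-like cultures were high in each gene, and 4472 reached at least 0.5 times the lowest culture in all 14 genes and 4470 in 11.

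Strains 4470 and 4472 were most often the exceptions. In 14 of the 14 genes 4472 had at least 0.5 times the RPKM of the lowest culture, and 4470 had it in 11, against 0 to 4 genes for the other 22 Franklin strains. Outside the Franklin set JW16 had it in 12 genes and 1693 in 10. Without 4470 and 4472 the comparison called 44 genes, 39 higher and 5 lower, and the 14 were all among them. The reads of each strain may have been aligned to the genome of 2489, which was the reference in the study's calling of variants. A lower level in Franklin strains and reads lost to sequence that differs from 2489 cannot be told apart in these values.

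Genes without reads in Franklin strains were few. Of 7389 genes with at least 1 RPKM in each culture, 106 were at 0 in at least 1 Franklin strain and 10 were at 0 in 12 or more. A single strain lacked reads in 9 to 32 of the 7389 genes, except 4470 with 3 and 4472 with 4. JW16 lacked reads in 1. Among genes of at least 10 RPKM in each culture, 17 were at 0 in at least 1 Franklin strain. Besides the genes above these included NCU05915 (23.1, 27.6 and 20.8 RPKM, at 0 in 9 Franklin strains), NCU05712 (76.0, 50.3 and 45.4 RPKM, at 0 in 8), NCU05025 (30.5, 17.2 and 17.4 RPKM, at 0 in 7) and NCU04572 (34.7, 21.5 and 17.6 RPKM, at 0 in 5). In these 4 genes at least 1 Franklin strain exceeded the lowest culture. In the converse, 33 of 697 genes at 0 in all 3 cultures reached 5 RPKM in at least 1 Franklin strain. Of 6249 genes of at least 5 RPKM in each culture, 28 were at 0 in at least 1 Franklin strain. The counts were close, but they came from sets of very unequal size, so the shares were not alike. The values cover only genes with NCU IDs. Genes that Franklin strains hold and this annotation lacks could not be counted, so the 33 is not a full converse of the 28. None of the 33 reached 5 RPKM in more than 8 strains, and 7 of the 28 were at 0 in 12 or more.

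Some of the 10 genes that varied most among Franklin strains varied less among the cultures. NCU05841 had the largest Franklin SD (3.53), from 0.064 to 433 RPKM, and was at 448, 269 and 237 RPKM in the cultures (SD 0.48). NCU04491 had an SD of 2.96 among Franklin strains and 0.83 among cultures. NCU01381 was at 129, 53.4 and 121 RPKM (SD 0.70) and had an SD of 2.82 over Franklin values between 0 and 184. The other 7 genes had an SD above 1 in both sets. NCU11292 (SD 2.78 among Franklin strains, 1.26 among cultures) was at 56.99, 11.3 and 52.1 RPKM in the cultures and at 0 in 4 Franklin strains. The others were *con-10* (SD 3.004 among Franklin strains, 2.07 among cultures), NCU08770 (2.94 and 1.41) and NCU09049 (2.92 and 1.38), all with 4457 as the highest Franklin strain, together with NCU02880, NCU03788 and *poi-2*. Outside the first 10, NCU05712 had an SD of 2.58 among Franklin strains and 0.39 among cultures. Triples of Franklin strains match the cultures in number. A lower SD than in the cultures was found in 10.42% of triples for NCU05841 and 13.98% for NCU04491. The share was 14.23% for NCU01381 and 11.02% for NCU05712, so such a steady level was not rare. It reached 88.74% for NCU02880, 86.22% for NCU03788 and 92.09% for *poi-2*. For the remaining genes of the 10 it ran from 21.84% to 41.996%. Over all 5905 genes, 388 had a Franklin SD above 1, of which 139 (35.8%) had an SD above 1 among the cultures too and 55 had an SD under 0.3. The SD among the cultures was larger than over all Franklin strains in 39.1% of the 5905 genes. Between 847 and D143 alone the counts were 101 genes with an SD above 1 and 123 with an SD under 0.3, and the share was 16.3%.

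**Figure D5:**
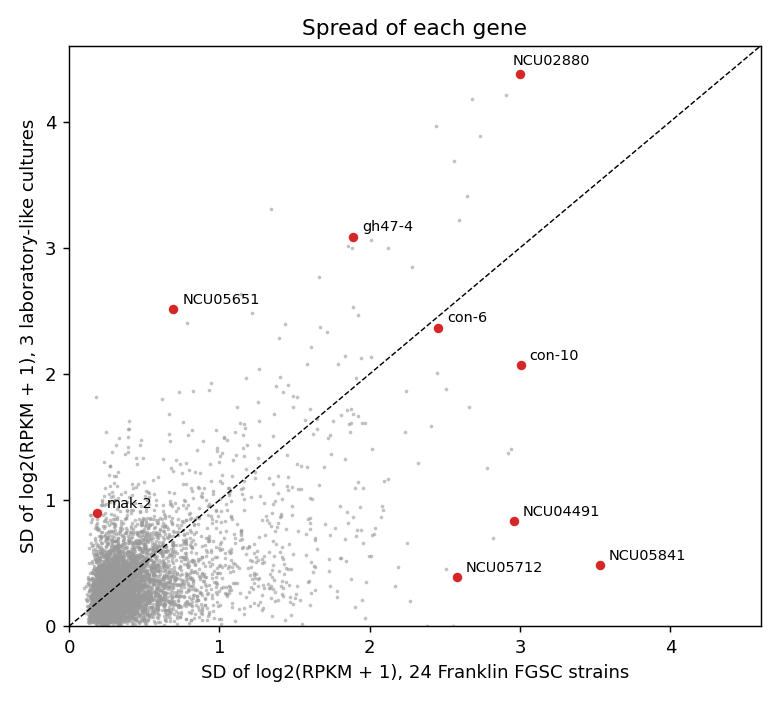
SD of log2(RPKM + 1) for each of 5905 genes among the 3 laboratory-like cultures (y axis) against that among 24 Franklin FGSC strains (x axis), with the line of equal SD dashed and 9 genes in red. An SD of 3 values tends to lie below one of 24. NCU05841 and NCU05712 lie far below the line (0.48 against 3.53 and 0.39 against 2.58), while NCU05651 (2.51 against 0.69) and *mak-2* (0.90 against 0.19) lie above it.

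The lists of genes with known roles gave 1 call. It was NCU07191, in a list of 12 genes tied to incompatibility and recognition, of which 11 were tested and 10 were above 0, with a median difference of 1.32 against 0.05 over all genes. The share of genes called in the comparison was 0.176%. *het-c*, a heterokaryon incompatibility gene, was at 35.9, 30.5 and 32.2 RPKM against 10.6 to 31.8 (difference 0.75, adjusted p = 0.17 by limma). The 6 members at a mean of 10 RPKM or more had a median SD of 0.38 among the cultures, and 7.61% of Franklin triples were lower, or 0.24 without 2489 with 13.4% of Franklin pairs lower. The 6 heat shock genes had a median SD of 0.14 among the cultures, with 2.22% of triples lower, or 0.15 without 2489 with 21.4% of pairs lower. The members differed: for *hsp30* 1.28% of triples were lower, for *hsp60* 50.1% and for *hsp80* 92.1%. *hsp30*, a small heat shock protein gene, was at 20.4, 20.1 and 21.4 RPKM against 18.03 to 46.8 with a median of 28.9 (-0.50, adjusted p = 0.30), and *hsp80* of the HSP90 family was at 718, 749 and 398 against 434 to 1010, with D143 below every Franklin strain.

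All 7 nitrogen genes were above 0, with a median difference of 0.23, and none was called. *nit-6*, the gene of nitrite reductase, was at 37.9, 12.1 and 46.7 RPKM against a Franklin median of 4.06 and a highest value of 55.9 (2.42, adjusted p = 0.27 by limma), and *nit-3*, that of nitrate reductase, was at 27.6, 13.6 and 21.9 against 10.5 (0.65, adjusted p = 0.70). Of 12 light response genes 11 were below 0, the smallest p belonging to *vvd*, a blue light photoreceptor gene (-0.59, adjusted p = 0.66), beside *wc-1* (-0.40, adjusted p = 0.67). In the genome defence list *dim-2*, the DNA methyltransferase gene, differed by 0.29 and *hpo*, a heterochromatin protein gene, by -0.18 (adjusted p = 0.50 and 0.51). NCU08997 (0.43) and *pho-3*, an acid phosphatase gene (-0.37), had the smallest p of the phosphate list, and *qa-3* (0.16) and *qa-Y* (-0.26) of the quinic acid list, with adjusted p of 0.45 to 0.79. Of 22 candidate genes from the study's association mapping 11 were above 0 and 11 below, and *ck-1b*, a casein kinase gene, had the smallest p after *cse-1* (-0.27, adjusted p = 0.47). A p that misses the threshold with 3 cultures does not show that levels were equal.

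The 6 mating type and pheromone genes with a row (of 7 listed) were low in these mycelia, at most 5.86 RPKM in the 27 libraries. *matA-1*, a regulator of mating type A that strains of the opposite mating type lack, was at 1.10, 0.576 and 0.786 RPKM in 2489, 847 and D143, from 5, 5 and 6 reads. It was at 0 in 17 Franklin strains and at 0.615 to 5.86 RPKM in the other 7. *matA-2* was at 0 in all 3 cultures, and *matA-3* was at 0, 0 and 0.119 RPKM. *ccg-4*, which encodes a pheromone precursor, was at 0, 0 and 0.128 RPKM against a highest Franklin value of 1.11. The receptor gene *pre-2* was at 0.344, 0.418 and 0.136 RPKM. Only *pre-1*, the other receptor gene, passed the filter, at 0.448, 1.49 and 1.49 RPKM against 0.918 to 3.77 (-0.43, adjusted p = 0.44 by limma).

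Genes whose groups did not overlap were rare. In 14 of the 7964 genes (0.176%) every culture was above every Franklin strain, and in 6 (0.0753%) every culture was below. Besides the 4 called genes, the higher set held NCU03492, at 87.6, 94.1 and 91.9 RPKM against 21.05 to 86.9, and NCU09824, at 56.7, 59.7 and 58.7 against 18.5 to 55.8. In the lower set *tah-3* was at 21.1, 25.5 and 23.8 RPKM against 30.3 to 120 (-1.19, adjusted p = 0.17), and *ccg-9*, a clock-controlled gene, at 0.375, 0.469 and 0.400 against 0.657 to 29.6. NCU06376 was at 0.427, 0.557 and 0.443 RPKM in the cultures and reached 218 in the Franklin strain 4487. NCU05613 was at 0 in all 3 cultures and above 0 in all 24 Franklin strains, the lowest of them at 0.065 RPKM.

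Set against 81 libraries from strains of neither group, the same 3 cultures differed in 219 of 7967 genes (2.75%), 138 higher and 81 lower, or 86 and 106 after quantile normalization. Of the 14 genes above, 13 were tested there and all 13 were called with the same sign, the comparisons sharing the 3 cultures. NCU06420 differed by 7.42, NCU09968 by 4.76 and NCU07191 by 3.83 (adjusted p = 2.59e-06, 7.22e-14 and 0.0155 by limma). NCU11930 was at 0 in 74 of the 81 libraries and its mean was too low to be tested. Without 2489 the count fell from 219 to 3 genes, and without 847 and without D143 it was 323 and 286.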

How the data were processed

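The authors deposited 1 table of RPKM, scaled by gene length and library total, for 9733 genes and 112 strains. Bowtie 0.12.2 is named in the submitters' notes, while the tool that counted reads, the annotation and the build are not stated for these values. Every column was matched by name, with 0 left unused. Whole reads were recovered from the steps of the values, within 0.001 read for 9696 of 9696 genes above 0, and gave the totals. Recovered lengths were multiples of 3 in 99.5% of genes. Of the 112 columns, 4 pairs were near-identical (87.1% to 89.5% of values the same) and were counted once among the 81 other libraries. Total reads per library set the precision, and reads without molecular identifiers carry counting error only as a lower limit.

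Tests used limma 3.58.1 (R 4.3.3) with a trend on log2(RPKM + 1), a scale that understates differences of low genes, for genes whose mean reached 1 RPKM. Spread and distance used genes whose mean reached 10 RPKM. All triples were enumerated, with no test. Scripts were tested on simulated data. Python 3.11.15, numpy 2.4.6, pandas 2.3.3 and scipy 1.17.1 did the rest. Symbols come from NCBI's annotation of assembly NC12, where 8914 IDs matched, or from the paper, and no coordinates are given.

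The members and lists were chosen with earlier results of these data known. Genes named were all mating type and pheromone genes, *cse-1*, the 15 largest called changes in each direction, in each list the called genes or the 2 with the smallest p, the 10 largest SDs in each group, and up to 10 genes of at least 10 RPKM in each culture at 0 in most Franklin strains. Others were chosen after their values were seen. The lists covered mating type, conidiation, light, heat shock, copper and zinc, incompatibility, fusion, mapping candidates, genome defence, nitrogen, phosphate and quinic acid. The alternatives were pseudocounts of 0.1 and 5 RPKM, other filters, median centring, quantile normalization, no trend, array weights, library total as covariate, voom on the recovered reads, thinned reads, all libraries in 1 fit, strains left out and each culture left out. Leaving out 4451, and each culture for SDs, was added after the data were seen.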

Additional observations from a re-analysis of the deposited data

How the results depend on the processing

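No paired analysis was possible because the groups hold different strains with 1 culture each. The 14 calls between the laboratory-like and Franklin groups became 4 with a pseudocount of 0.1 RPKM and 22 with 5 RPKM, 23 with no filter and 1 with a mean of at least 5 RPKM, 22 after quantile normalization, 2 with the library total as covariate, 115 with all libraries in 1 fit and 44 without 4470 and 4472. The count was 17 after median centring or with array weights, 15 with no trend, 19 by voom on recovered reads, 12 without 4453 and 14 without 4451. Leaving out each culture in turn gave 2 to 58 calls, and 3 to 323 against the other strains, where 219 became 39 with the library total as covariate. NCU11930 and NCU09968 were called in every alternative in which they were tested, 15 and 16. Both passed the main filter only through the cultures in which they were high. The sign of all 14 differences held in every alternative in which they were tested.

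Genes at 0 in at least 1 Franklin strain numbered 106 at a minimum of 1 RPKM and 28 at 5 RPKM. The median distance between 2 laboratory-like libraries was 0.405, and leaving out each culture gave 0.233 to 0.415, the lowest without 2489. The median SD of 0.296 stayed between 0.266 and 0.315 in the alternatives with all 3 cultures, where 37.2% to 62.3% of Franklin triples were below it. Leaving out each culture gave 0.165 to 0.293, over 2 values each, the lowest without 2489.

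Some uncalled differences changed sign. Over the fits that left out 1 culture, *sod-1* (NCU02133) ran from -0.21 to 0.68, *mak-2* (NCU02393) from -0.66 to 0.14, *cse-1* (NCU04379) from -0.71 to 0.000256, *qa-3* (NCU06025) from -0.076 to 0.28 and *tcu-3* (NCU07428) from -0.96 to 0.51, each changing sign without 2489. *hsp80* (NCU04142) ran from -0.38 to 0.076, the latter without D143. With array weights *qa-3* was at -0.0092 and *tcu-3* at 0.11. With the library total as covariate *wc-1* (NCU02356) was at 0.0061, *csp-1* (NCU02713) at 0.17, *vvd* (NCU03967) at 0.30 and *csp-2* (NCU06095) at 0.19. The causes were not tested. The totals of 5132423 to 30748165 reads limit what a value of 0 shows in weakly expressed genes.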
